A study of Mus musculus with 6 samples.

Results

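Immediate early genes are transcribed within minutes of a stimulus without new protein synthesis, and enzymatic dissociation and flow sorting of a tissue are known to induce them. The 10 genes described here, Fos, Fosb, Fosl2, Jun, Junb, Jund, Egr1, Atf3, Ier2 and Klf6, were chosen by name from 21887 protein-coding genes. The rule uses no measured value, but the choice was made with earlier results of these data known. H3K27ac, the acetylated lysine of histone H3 that marks enhancers and promoters in use, was mapped in cells sorted from E16.5 mouse lungs. The assay was CUT&RUN, where an antibody brings a nuclease to the marked chromatin and the released DNA is sequenced. The gate for mesothelial cells, which cover the lung surface, was PDPN+EPCAM-CD45-CD31-DAPI-. The gate for epithelial cells differed in requiring EPCAM. Both groups came from matings of Myrf Fl/Fl mice, whose Myrf alleles are floxed. No Cre is named in the labels, and wildtype is the word of the series text for these cells. Lungs were pooled before the sort. Whether the replicates are separate pools is not stated, so the spread behind each p-value is that between libraries and is possibly technical. Peak lists of 2 mesothelium and 2 epithelium libraries were used. By their titles, replicate 1 held 25k cells in mesothelium and 100k in epithelium, and replicate 2 held 100k and 200k. Another 2 libraries, made with IgG from epithelial cells, were not analysed here. Every library came from dissociated and sorted cells, so acetylation present in the lung and acetylation gained during handling cannot be told apart.

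Most of these genes encode basic leucine zipper proteins of the AP-1 factor, a dimer of a JUN protein with a FOS, JUN or ATF protein that binds a short palindrome in enhancers and promoters. FOS, FOSB and FOSL2 cannot pair with themselves and need a JUN partner, whereas JUN proteins can also form dimers among themselves. ATF3 is a stress-induced ATF family member. EGR1 and KLF6 are zinc-finger factors that bind GC-rich promoters, and IER2 is a nuclear protein of the same early response. Their promoters are often already marked as active before a stimulus, so a peak at such a gene does not by itself show transcription.

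Each gene was given a domain: its body and the flanks out to 50 kb, or to the midpoint with the next coding gene where that came first. The lists held 39010 and 41532 peaks in mesothelium and 47873 and 46633 in epithelium, with median widths between 571 and 613 bp. They hold no counts, so read depth is unknown and the absence of a listed peak is not the absence of acetylation. The sorts were checked with fixed markers. Of 7 tested mesothelial markers, 4 had a longer domain in mesothelium (Wt1, Bnc1, Muc16 and Gpm6a), and of 7 tested epithelial markers, 3 had a longer one in epithelium (Nkx2-1, Cdh1 and Etv5; limma adjusted p under 0.05). Among the other tested mesothelial markers, Lrrn4 was at 2.31, Msln at −1.17 and Krt19 at −0.24 (log2, mesothelium minus epithelium), and none of these passed. The 6 endothelial markers summed to 11.6 kb and 10.5 kb in the mesothelium libraries against 4.20 kb and 5.78 kb in epithelium. Of these, Tek and Kdr were longer in mesothelium (adjusted p = 0.011 and 0.049, limma), and Cldn5, Erg and Cdh5 had no peak there. Kdr lost its call when any 1 library was left out. Bnc1, Muc16 and Tek lost theirs without mesothelium replicate 2, Muc16 also without either epithelium library, and Cdh1 without epithelium replicate 2. Pecam1, which encodes the CD31 of the gate, had 5.43 and 1.53 kb there and 2.31 and 1.92 kb in epithelium. The 6 immune markers summed to at most 1.74 kb in any library and the 6 mesenchymal markers to between 2.75 and 5.64 kb. The 8 epithelial markers summed to 17.1 kb and 3.18 kb in mesothelium replicates 1 and 2 against 75.0 kb and 93.6 kb in epithelium. For the 8 mesothelial markers the sums were 24.8 kb and 52.9 kb in mesothelium against 4.935 kb and 9.06 kb in epithelium replicates 1 and 2. The part of other cells in the values below was not tested.

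The start of Jun lay under a peak in all 4 libraries, while that of Atf3 lay under none. The 250 bases before the annotated start of 5 of the genes are shown because they run from full to no cover. Jun was covered over all 250 bases in each library. Klf6 was covered over all 250 bases in 3 libraries and not at all in epithelium replicate 2. Fosl2 was covered over 23, 250, 110 and 0 bases in mesothelium replicates 1 and 2 and epithelium replicates 1 and 2. Fos was covered over 128 bases in mesothelium replicate 2 and 81 in epithelium replicate 2, and in neither replicate 1. Sequences are those of RefSeq for GRCm38.p6 (mm10), which held a promoter for 8 of the 10 genes, written 5′ to 3′ on the gene's strand. Capitals mark matches to TGACNTCA or GCGNGGGCG.
Jun, chr4:95052223-95052472, minus strand: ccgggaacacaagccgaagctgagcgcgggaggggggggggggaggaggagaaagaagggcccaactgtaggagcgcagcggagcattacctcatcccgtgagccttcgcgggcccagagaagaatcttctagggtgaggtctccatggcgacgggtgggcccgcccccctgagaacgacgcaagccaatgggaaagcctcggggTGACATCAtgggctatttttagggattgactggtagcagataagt
Klf6, chr13:5861239-5861488, plus strand: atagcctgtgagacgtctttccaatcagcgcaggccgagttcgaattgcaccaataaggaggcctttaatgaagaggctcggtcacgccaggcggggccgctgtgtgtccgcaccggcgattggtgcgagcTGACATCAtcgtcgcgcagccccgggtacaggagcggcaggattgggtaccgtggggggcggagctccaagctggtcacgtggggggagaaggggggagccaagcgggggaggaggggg
Fosl2, chr5:32136222-32136471, plus strand: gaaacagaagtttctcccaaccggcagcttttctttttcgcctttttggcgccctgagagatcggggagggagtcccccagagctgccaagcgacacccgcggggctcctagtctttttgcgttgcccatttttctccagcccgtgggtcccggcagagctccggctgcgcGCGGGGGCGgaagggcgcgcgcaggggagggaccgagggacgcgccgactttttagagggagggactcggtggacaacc
Fos, chr12:85473640-85473889, plus strand: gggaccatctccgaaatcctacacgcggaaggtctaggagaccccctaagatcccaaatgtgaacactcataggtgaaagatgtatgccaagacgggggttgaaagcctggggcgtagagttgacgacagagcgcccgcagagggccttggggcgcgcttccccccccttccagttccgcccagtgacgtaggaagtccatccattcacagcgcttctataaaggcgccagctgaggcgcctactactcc
Atf3, chr1:191183334-191183583, minus strand: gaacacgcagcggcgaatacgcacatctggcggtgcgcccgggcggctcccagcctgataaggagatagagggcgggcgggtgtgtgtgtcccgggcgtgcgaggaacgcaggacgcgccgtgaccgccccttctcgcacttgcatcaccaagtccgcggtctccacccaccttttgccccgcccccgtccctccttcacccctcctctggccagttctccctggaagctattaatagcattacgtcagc

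Jun and Klf6 each held TGACATCA, a form of the element bound by JUN and ATF dimers, at −45 to −38 and −119 to −112 bp from the start. Fosl2 held GCGGGGGCG, the EGR element, at −79 to −71 bp, and Fosb, not shown, held it at −50 to −42 bp. Both strands were searched, with N for any base. TGACNTCA was present in 7.49% of the 32851 RefSeq promoter windows of the same length and GCGNGGGCG in 4.70%, against 2 of the 8 promoters here for each. The AP-1 element TGANTCA (6.75% of all windows) and the CArG box bound by SRF (1.47%) had no match in the 8 windows. Egr1 and Ier2 had no window, and sequence further upstream than 250 bases was not searched, so sites there would be missed. A match describes these letters and is not evidence of binding. A window of this kind lay at least partly under a peak in 12.9% and 18.6% of cases in the mesothelium libraries and 13.4% and 13.3% in the epithelium libraries, against 4, 5, 3 and 2 of the 8 genes.

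Length under peaks ranged from more than 3 kb in each library at Jun, Klf6 and Fosl2 to less than 0.5 kb in each at Fosb. A domain peak was present in all 4 libraries at 7 of the 10 genes, against 31.6% of all coding genes. Fosb, Junb and Egr1 were the exceptions. The median over the 10 genes of the mean length under peaks was 2.99 kb, against 0.441 kb over all coding genes, whose median domain spanned 45.8 kb. A peak within 1 kb of either end of the gene, called a gene-end peak below, was present in all 4 libraries at 4 of the 10 genes, Jun, Jund, Fosl2 and Klf6, against 10.9% of all coding genes. Atf3 and Fosb had no gene-end peak in any library. In bulk chromatin, fewer marked cells and less acetylation per cell cannot be told apart. For a minimum of 2 on the −log10 q that the authors' peak caller gave, the counts were 2 genes (Jund and Klf6) and 1 gene (Jund), against 10.3% and 1.88% of all coding genes. For a minimum of 4 they were 0, against 0.0503% and 0.0137% of coding genes. With all peaks admitted and the 5′ end alone, 3 genes (Jun, Fosl2 and Klf6) had a gene-end peak in all 4 libraries, against 9.59% of coding genes. In epithelium replicate 2 the gene-end peak of Jund lay at its 3′ end, which is 0.704 kb from the next coding gene, Iqcn.

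**Figure D1:**
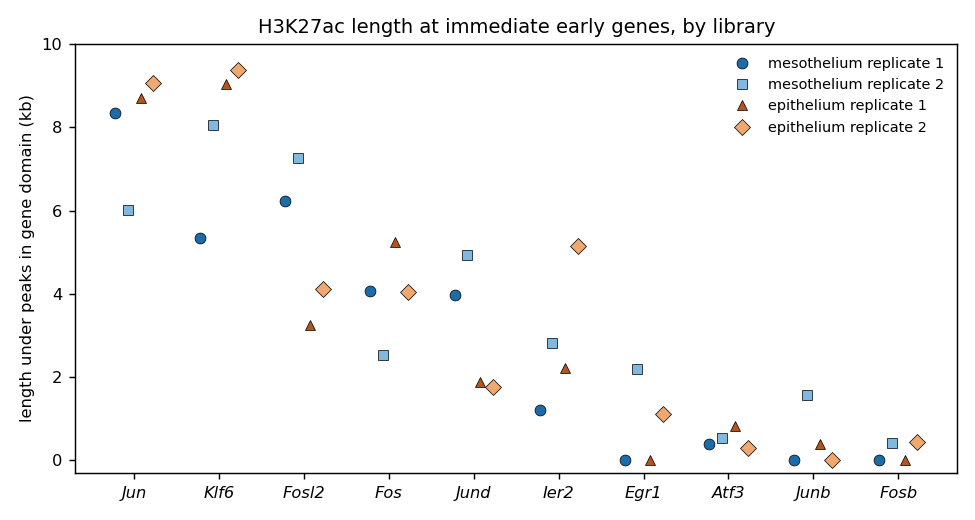
Length under H3K27ac peaks (kb, vertical axis) in the domain of each gene (horizontal axis, ordered by mean), with 1 point for each of the 4 libraries. Jun lies between 6.02 and 9.07 kb and Fosb between 0 and 0.449 kb, and the points of the 2 cell types separate at Jun, Klf6, Fosl2 and Jund. Such a separation, near as frequent over all tested domains, was found in 22.4% with mesothelium longer and in 25.5% with epithelium longer.

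Among the JUN genes, which encode the partners that FOS proteins need, Jun had the longest cover in kb. It also had the longest domain, at 88.1 kb against 12.7 kb for Jund and 7.90 kb for Junb. As a share of the domain, Jund was above Jun in each library. Jund had 31.2% and 38.8% covered in mesothelium replicates 1 and 2 and 14.9% and 13.8% in epithelium. The shares of Jun were 9.47% and 6.83% in mesothelium and 9.86% and 10.3% in epithelium. Jun (chromosome 4, 95049036 to 95052222, mm10, minus strand) carried 8.35 and 6.02 kb in mesothelium replicates 1 and 2 and 8.69 and 9.07 kb in epithelium replicates 1 and 2. Both epithelium libraries were above both mesothelium libraries, by little in the case of mesothelium replicate 1, an order found in 25.5% of all tested domains. The log2 difference, mesothelium minus epithelium, was −0.24 (SE 0.46, 95% interval −1.19 to 0.71, adjusted p = 0.842, limma), and it turned to 0.074 without mesothelium replicate 2 and to 0.28 with flanks of 5 kb. Positions below are in bp from the gene's 5′ end, with upstream negative. Regions are overlapping peaks of any libraries merged into 1, so not every base of a shared region lies under a peak in each library. A region from −2201 to 1671 (95050551 to 95054423) spanned the start in all 4 libraries, with peaks of 3689, 3163, 3826 and 1970 bp in the order of libraries above. In mesothelium replicate 2 that peak had a fold enrichment of 6.87 and a −log10 q of 7.23, the highest of any peak in the 10 domains, and 99.7% of that library's peaks had a lower −log10 q. A second region shared by all 4 libraries lay upstream at −32336 to −28850 (95081072 to 95084558).

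The upstream flank of Jun also held the only 2 regions of the 10 domains that were present in both libraries of 1 cell type and neither of the other. They lay at −25303 to −21893 (95074115 to 95077525) and −47748 to −46285 (95098507 to 95099970), and both were epithelium-only. In the first, epithelium replicate 1 had a peak of 994 bp with a fold enrichment of 5.00 and a −log10 q of 3.44, and replicate 2 had one of 3411 bp with 3.17 and 1.19. Only 0.367% of the peaks of epithelium replicate 2 had a lower −log10 q than the latter. In the second, the −log10 q was 1.31 in epithelium replicate 1 and 1.42 in replicate 2, with 30.8% and 38.7% of each library's peaks lower. Of all 132212 merged regions, 3.31% had this epithelium-only pattern and 2.60% the mesothelium-only one, so 2 and 0 of the 52 regions in these domains are near the background.

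Jund, which encodes the JUN protein that is present before a stimulus in most cells, was covered differently along the gene in the 2 cell types. Jund (chromosome 8, 70697739 to 70700616) measured 3.97 kb and 4.94 kb in the mesothelium libraries against 1.89 kb and 1.76 kb in epithelium, in a domain of 12.7 kb that Lsm4, 19.0 kb away, and Iqcn, 0.704 kb away, shorten on both sides. Both mesothelium libraries were above both epithelium libraries, an order found in 22.4% of all tested domains. In mesothelium a single peak covered the start and most or all of the gene, from −1606 to 2362 in replicate 1 and from −1954 to 2981 in replicate 2, and 99.0% and 99.5% of each library's peaks were narrower. In epithelium separate peaks lay upstream, from −2413 to −1459 in replicate 1 and from −2694 to −1506 in replicate 2, and at the gene's 3′ end, from 2342 to 2866 and from 2344 to 2915. Replicate 1 had another peak of 413 bp inside the gene, from 339 to 751, and no epithelium peak crossed the start. The 250 bases before the annotated start were thus wholly covered in mesothelium and uncovered in epithelium. The peak at the 3′ end in epithelium replicate 2 had a fold enrichment of 5.77, and 99.4% of that library's peaks had a lower −log10 q. Iqcn, the neighbour beyond that end, had 0.456 and 1.81 kb under peaks in epithelium replicates 1 and 2 and none in mesothelium. To which of the genes the 3′ end peaks belong was not tested. The log2 difference of 1.14 (SE 0.61, 95% interval −0.12 to 2.41) did not pass (adjusted p = 0.336, limma), and the difference in peak shape was not tested.

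Junb, a JUN protein that often opposes JUN in growth control, had a domain of 7.90 kb between Prdx2 and Hook2 (chromosome 8, 84976909 to 84978748). It carried no peak in mesothelium replicate 1, 1.56 kb in mesothelium replicate 2, 0.384 kb in epithelium replicate 1 and no peak in epithelium replicate 2. The peaks formed 1 region at −2444 to −883, upstream of the gene. With a mean of 0.487 kb it missed the minimum of 0.5 kb and was not tested.

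**Figure D2:**
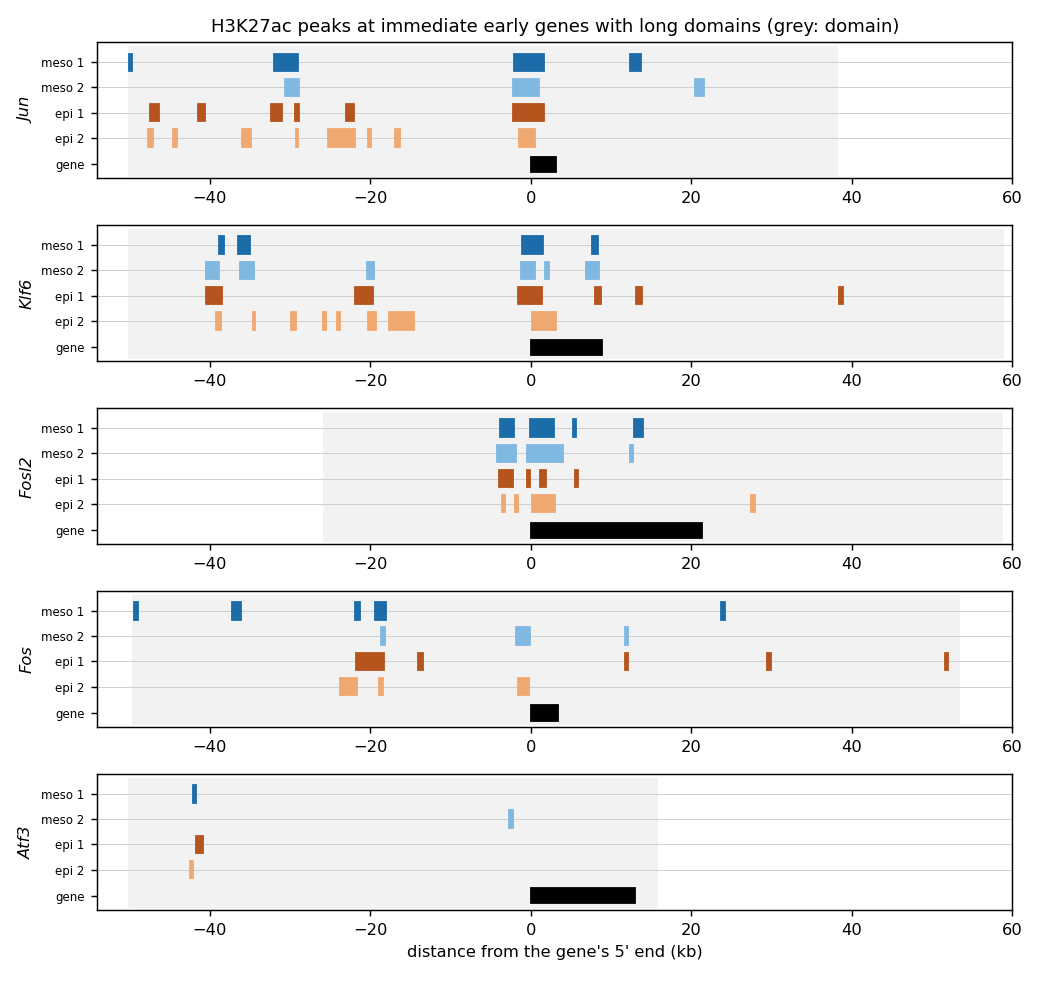
Peaks of mesothelium replicates 1 and 2 (meso 1, meso 2) and epithelium replicates 1 and 2 (epi 1, epi 2) at 5 genes, by distance from the gene's 5′ end (kb, horizontal axis), with the gene body in black and the domain in grey. Peaks of all 4 libraries meet at or just inside the starts of Jun, Klf6 and Fosl2, while at Fos they meet about a region centred upstream, and Atf3 has no peak in its gene body.

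Of the FOS genes, Fosl2, which encodes the FOS family member FRA2, had the longest mean cover over the 4 libraries, while in epithelium replicate 1 Fos was longer. Fosl2 (chromosome 5, 32136472 to 32157840) measured 6.24 kb and 7.26 kb in the mesothelium libraries against 3.25 kb and 4.13 kb in epithelium. The mesothelium libraries were both above the epithelium libraries, as in 22.4% of all tested domains. The log2 difference was 0.86 (SE 0.53, 95% interval −0.24 to 1.95, adjusted p = 0.413, limma). Both regions that all 4 libraries shared lay around the start, at −4218 to −1598 (32132254 to 32134874) and at −490 to 4028 (32135982 to 32140500). In the second region mesothelium had unbroken peaks of 2981 and 4494 bp, epithelium replicate 1 had 2 short peaks of 350 and 762 bp, and epithelium replicate 2 had 1 peak of 2868 bp.

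Fos, the founding member of the family, had no peak across its start in any library. Fos (chromosome 12, 85473890 to 85477274) measured 4.07 kb and 2.53 kb in the mesothelium libraries against 5.24 kb and 4.04 kb in epithelium, and the groups overlapped (log2 difference −0.40, SE 0.58, 95% interval −1.59 to 0.80, adjusted p = 0.783, limma). With flanks of 5 kb the difference at Fos turned to 0.11. The 1 region shared by all 4 libraries lay upstream at −23801 to −18043 (85450089 to 85455847), on the side of Tmed10, which lies 99.2 kb from Fos. Mesothelium replicate 2 and epithelium replicate 2 had peaks of 1649 and 1382 bp that ended at −123 and −170, just before the start. Neither replicate 1 had a peak in the gene or within 1 kb of its ends.

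Fosb, which responds to the same stimuli as Fos, had the lowest mean length under peaks of the 10 genes. Fosb (chromosome 7, 19302696 to 19310118) had no peak in either replicate 1, a peak of 643 bp at the edge of its domain in mesothelium replicate 2, of which 0.418 kb counted, and 1 of 449 bp inside the gene in epithelium replicate 2. The latter had a −log10 q of 1.19, and only 0.367% of that library's peaks had a lower value. Fosb was not tested, with a mean of 0.217 kb.

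**Figure D3:**
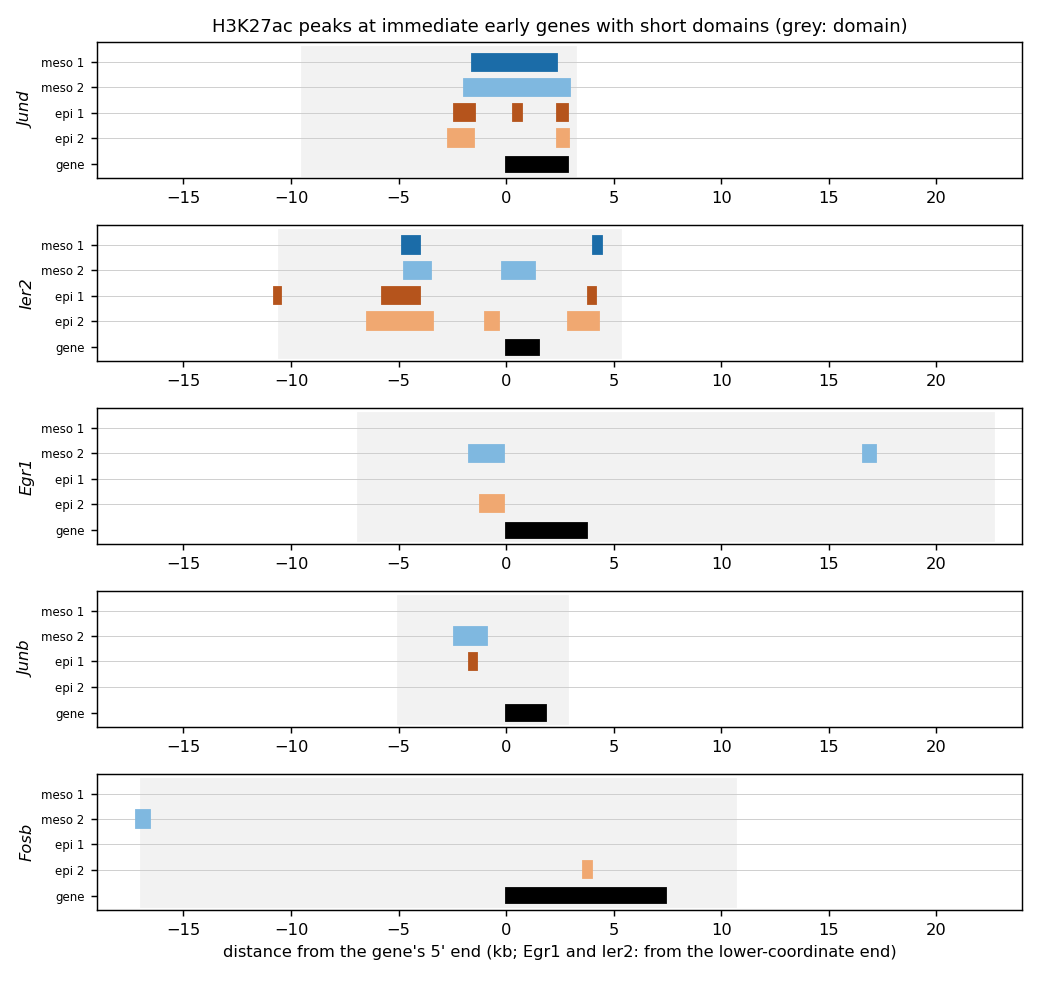
Peaks of the 4 libraries, as labelled at the left (meso, mesothelium; epi, epithelium), at the 5 genes with the shortest domains, by distance from the 5′ end or, for Egr1 and Ier2, from the lower-coordinate end (kb, horizontal axis), with the gene body in black and the domain in grey. Mesothelium covers the start of Jund with 1 unbroken peak per library, while epithelium has separate peaks upstream and in the gene, and Egr1 has peaks in replicates 2 alone.

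The other early transcription factors ranged from Klf6, covered over several kilobases in each library, to Atf3, with 1 short peak per library. Klf6 (chromosome 13, 5861489 to 5870393) measured 5.35 kb and 8.06 kb in the mesothelium libraries against 9.04 kb and 9.36 kb in epithelium. Both epithelium libraries were above both mesothelium libraries, but the mesothelium libraries differed from each other by more than the nearest values of the 2 groups (log2 difference −0.39, SE 0.46, 95% interval −1.34 to 0.55, adjusted p = 0.712, limma). Regions of all 4 libraries lay across the start, at −1605 to 3104 (5859884 to 5864593), and upstream at −40466 to −38242 (5821023 to 5823247). Its flanks were not shortened by a neighbour. The peak at −38861 in mesothelium replicate 1 had a fold enrichment of 5.82, and 99.5% of that library's peaks had a lower −log10 q.

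Egr1 (chromosome 18, 34861207 to 34864956) had no peak in its domain in either replicate 1. It carried 2.19 kb in mesothelium replicate 2 and 1.11 kb in epithelium replicate 2. Positions of Egr1 and Ier2 are counted from the gene's lower-coordinate end. The peaks of the 2 libraries ended at the same position, −107, and began at −1733 and −1217. Their fold enrichments were 4.01 and 3.51. The fitted log2 difference of 0.43 (SE 0.96, 95% interval −1.56 to 2.42, adjusted p = 0.871, limma) is set by these 2 libraries and by the 0.5 kb added before the logarithm, and ran from −0.50 to 1.59 over the 3 fits that left out a library other than mesothelium replicate 2, without which Egr1 fell under the minimum of 0.5 kb.

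Atf3 (chromosome 1, 191170296 to 191183333) measured 0.388 kb and 0.539 kb in the mesothelium libraries against 0.815 kb and 0.299 kb in epithelium, each in a single peak (log2 difference −0.03, SE 0.86, 95% interval −1.82 to 1.76, adjusted p = 0.992, limma). In 3 libraries the peak lay far upstream, between −42410 and −40891, and in mesothelium replicate 2 it lay at −2687 to −2149. The distal peak of epithelium replicate 2 was short, at 299 bp, yet 99.6% of the peaks of its library had a lower −log10 q. In epithelium replicate 1, which had the widest peak at 815 bp, the share was 35.5%.

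Ier2 (chromosome 8, 84661331 to 84662852) measured 1.22 kb and 2.82 kb in the mesothelium libraries against 2.21 kb and 5.14 kb in epithelium, and the groups overlapped (log2 difference −0.65, SE 0.66, 95% interval −2.03 to 0.73, adjusted p = 0.658, limma). All 4 libraries had a peak in the region −6475 to −3416 (84654856 to 84657915), and all but mesothelium replicate 2 had one in the region 2880 to 4442. The gene itself was covered in mesothelium replicate 2 alone, by a peak from −195 to 1353, and epithelium replicate 2 had a peak at −985 to −328.

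Gene-end peaks were more frequent in replicate 2 than in replicate 1 of each cell type. They were present at 4 and 8 of the 10 genes in mesothelium replicates 1 and 2 (26.8% and 34% of all coding genes) and at 4 and 7 in epithelium replicates 1 and 2 (27.7% and 27.8%). Fos, Egr1 and Ier2 had a gene-end peak in both replicate 2 libraries and in neither replicate 1, a pattern shown by 2.57% of coding genes. The opposite pattern, replicate 1 only, was shown by none of the 10 and by 1.03% of coding genes. This grouping was chosen after the values were seen, so it is a description. Replicate 2 had more cells than replicate 1 in both cell types, at 100k against 25k and 200k against 100k, and the part of cell number was not tested. Of the other 16 early transcription factors on a fixed list, Csrnp1 alone showed the pattern (named after its values were seen), and none of the 20 feedback and effector genes or 12 heat shock genes did. It was also shown by Msln, 1 of the 8 mesothelial markers, and by Krt8, 1 of the 8 epithelial markers, so it was not particular to early genes. With a −log10 q of at least 2, none of Fos, Egr1 and Ier2 kept the pattern, and Jun showed it.

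**Figure D4:**
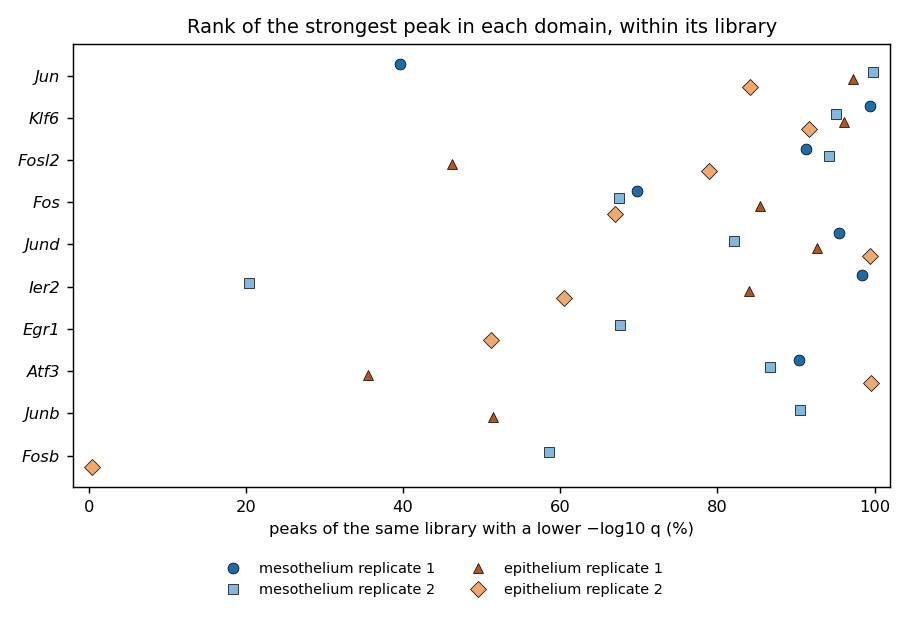
Rank of the strongest peak in each gene's domain within its own library, as the percentage of that library's peaks with a lower −log10 q (horizontal axis), with 1 point per library that has a peak there and genes ordered by mean length under peaks. Klf6 lies above 91% in all 4 libraries, while Fosb in epithelium replicate 2 lies at 0.367%.

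The 10 domains held 104 peaks, of which 5 reached a −log10 q of at least 4. By library these were 1 of 21 and 2 of 23 in mesothelium and 0 of 29 and 2 of 31 in epithelium. Over all peaks the shares were 1.60% and 5.46% in mesothelium and 1.19% and 1.24% in epithelium. Peaks in these domains had median widths of 1115 and 1562 bp in mesothelium, against 588 and 613 bp over each whole list. In epithelium they had median widths of 698 and 656 bp, against 580 and 571 bp. Merging overlapping peaks gave 52 regions: 9 were found in all 4 libraries and 31 in 1 library. Of all merged regions, 3.24% were present in all 4 and 80.8% in 1.

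None of the 8 tested genes passed the test of length under peaks between the cell types. The limma fit over 10484 domains, at a Benjamini-Hochberg adjusted p under 0.05, called 1.41% longer in mesothelium and 2.53% longer in the other cell type, and 0 of the 8 genes were called in either direction. At an unadjusted p under 0.05 there were again 0 of 8, against 17.8% of all tested domains. Adjusted p-values lay between 0.336 for Jund and 0.992 for Atf3. The median log2 difference was −0.14 over the 8 genes and 0.03 over all tested domains, with 3 genes positive and 5 negative. Both mesothelium libraries exceeded both epithelium libraries at 2 of the 8 genes (Fosl2 and Jund) and in 22.4% of tested domains. The reverse held at 2 genes (Jun and Klf6) and in 25.5% of domains. The intervals are wide, so these values do not show that the cell types are alike: an interval such as that of Jund reaches 2.41 on the log2 scale. Differences are on the log2(kb + 0.5) scale, which understates the change of short domains. By the titles, cell number also differed between the groups, at 25k and 100k in mesothelium against 100k and 200k in epithelium. Its part in the differences between cell types was not tested.

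**Figure D5:**
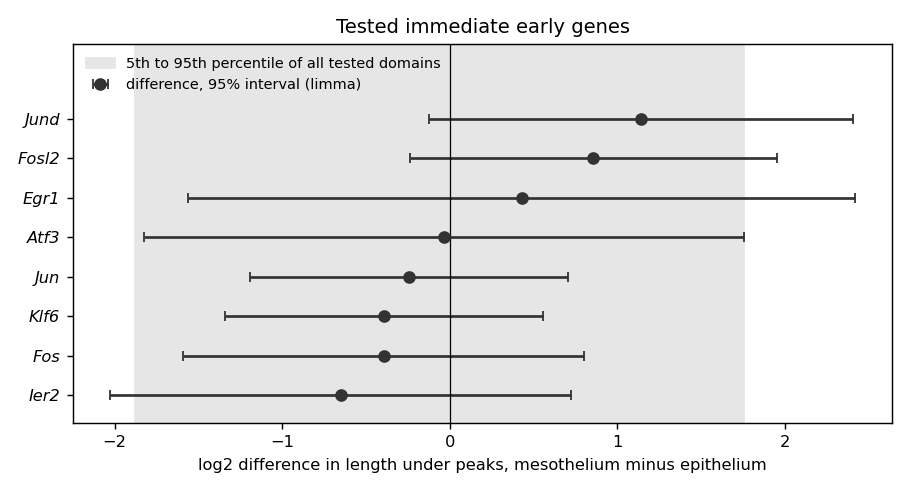
Log2 difference in length under peaks, mesothelium minus epithelium (horizontal axis), with its 95% interval from limma for the 8 tested genes, against the 5th to 95th percentile of all tested domains (grey band). All 8 intervals include 0 and all 8 differences lie within the band, from −0.65 for Ier2 to 1.14 for Jund.

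Other early response genes on fixed lists gave few calls. Of 16 further early transcription factors, 10 were tested and 0 called (limma), with 3 at an unadjusted p under 0.05 and a median log2 difference of 0.15. The longest was Hes1, a Notch target, with 6.11 kb and 1.34 kb in the mesothelium libraries against 8.98 kb and 10.9 kb in epithelium (adjusted p = 0.170, limma). Klf10 and Cebpb followed with means of 2.25 and 1.99 kb. Egr3, Egr4 and Fosl1 had no peak in any library. Of 20 feedback and effector genes, 18 were tested and 1 was called, with 5 at an unadjusted p under 0.05 and a median log2 difference of −0.19. This was Socs3, which encodes an inhibitor of cytokine receptor signalling, with 3.15 and 4.99 kb in the mesothelium libraries against no peak and 0.397 kb in epithelium (log2 difference 2.80, SE 0.74, adjusted p = 0.033, limma). Socs3 kept its call in 4 of 15 alternatives, and lost it without mesothelium replicate 1, mesothelium replicate 2 or epithelium replicate 1. Btg2, Zfp36l1 and Ier3 had the longest cover of this list, with means of 6.40, 5.86 and 5.01 kb, and were not called. Of 12 heat shock genes, 10 were tested and 0 called (0 at an unadjusted p under 0.05, median 0.49), and Hsph1 was the longest with a mean of 2.91 kb.

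Upstream kinases and factors bound at early gene promoters gave 1 call in each direction. Of 20 such genes, 17 had a domain peak in all 4 libraries, against 31.6% of all coding genes. Of these 20, 19 were tested and 2 were called. Over all tested domains, 1.41% were called longer in mesothelium and 2.53% longer in epithelium. At an unadjusted p under 0.05 (limma) there were 6, against 17.8% of all tested domains, and the median log2 difference was 0.58. Mrtfa, a coactivator of SRF, measured 26.5 kb and 28.7 kb in the mesothelium libraries against 13.2 kb and 7.27 kb in epithelium (log2 difference 1.50, SE 0.36, adjusted p = 0.018, limma). It kept its call in 11 of 15 alternatives, and lost it without epithelium replicate 2. Mapk14, which encodes the stress kinase p38 alpha, measured 4.17 kb and 1.98 kb in the mesothelium libraries against 13.7 kb and 11.1 kb in epithelium (log2 difference −1.85, SE 0.52, adjusted p = 0.045, limma). Mapk14 kept its call in 4 of 15 alternatives, and lost it without mesothelium replicate 2, epithelium replicate 1 or epithelium replicate 2. Srf itself carried 1.32 and 4.27 kb in the mesothelium libraries against no peak and 2.76 kb in epithelium and was chosen for mention after its values were seen. Of 15 AP-1 partners and inhibitors, 10 were tested and 0 called, with 3 at an unadjusted p under 0.05 and a median of 0.17. Nfe2l2 was the longest, with a mean of 15.3 kb. Jdp2, an AP-1 repressor that is the next coding gene beyond Fos, carried no peak and 0.466 kb in the mesothelium libraries against 2.74 kb and 2.27 kb in epithelium (log2 difference −2.05, SE 0.77, adjusted p = 0.155, limma), and was named for its position.

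By closeness of the 4 centred log2 values, the domains most like that of Jun were those of Ttc7b, Gpc5 and Diaph1, at Euclidean distances of 0.19, 0.21 and 0.27 over the 4 libraries. With 4 values per gene this likeness is a description. Genes that bound the domains had peaks of their own. Nacc1 next to Ier2 and Tmed10 next to Fos had gene-end peaks in all 4 libraries, whereas Rtn2 next to Fosb had no peak in any.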

How the data were processed

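H3K27ac CUT&RUN libraries were made from sorted mouse lung cells. The submitters' processing notes name cutadapt 4.8, Bowtie2 2.5.3, MACS2 2.2.9.1, bedtools 2.31.1 and the build mm10, without roles. For the peak caller, neither control nor threshold is given in the sources used here. Each library has 1 list of broad peaks, named after that library. The deposited ratio is each peak's fold enrichment, the deposited −log10 p was not used, the deposited −log10 q ranked and filtered peaks within a list, and the deposited score is the whole part of 10 times the −log10 q.

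Only peaks of chromosomes 1 to 19, X and Y entered. Genes came from RefSeq (GRCm38.p6), and all 10 symbols matched. Length under peaks per domain was compared in limma 3.58.1, under R 4.3.3, as log2(kb + 0.5). Libraries were median-centred over 6916 domains where all 4 had a peak. The fit used an intensity trend, and p-values were adjusted by Benjamini-Hochberg over the 10484 domains whose mean reached 0.5 kb. Egr1 passed that filter through the replicate 2 libraries alone. Coverage and limma steps were tested on simulated data. Overlap meant at least 1 bp. Other steps used Python 3.11.15 and pandas 2.3.3.

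The genes and lists were chosen with earlier results of these data known. Besides the 10 genes, each list's called genes, its 3 longest domains and the neighbouring genes were eligible to be named. The alternatives covered the peaks admitted, the domain, the pseudocount, the scaling, the filter, a block for the replicate number, the gene-end distance and leaving out each library.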

Additional observations from a re-analysis of the deposited data

How the results depend on the processing

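None of the tested genes of the 10 was called under any of 16 alternatives, where the lowest adjusted p was 0.206 (limma). That lowest value was of Jund with peaks of at least 1 kb, where its log2 difference was 2.43. In that setting 1 of the 7 tested genes had an unadjusted p under 0.05 (limma), against 1653 of all 7423 tested domains. Of 116 member values under these alternatives, 108 kept their direction and 8 turned it. Fos was 0.11 with 5 kb flanks. Jun was 0.28 with 5 kb flanks, 0.13 with peaks of at least 1 kb and 1.32 with a −log10 q of 4 or more, and ranged from −0.52 to 0.074 when 1 library was left out. Egr1 ranged from −0.50 to 1.59 and Atf3 from −0.39 to 0.028 when 1 library was left out, over 3 fits each (Egr1 without mesothelium replicate 2 and Atf3 without epithelium replicate 1 fell under the length minimum), and Atf3 was 0.025 after quantile normalization. The causes were not tested. Over all domains, 148 were called longer in mesothelium and 265 were called longer in epithelium. Each count was 0 for a −log10 q minimum of 2 or 4 and for peaks of at least 1 kb (960, 23 and 1653 domains at unadjusted p under 0.05), 1 and 0 with 0.1 kb added (1653), 88 and 123 scaled to total length and 96 and 128 after quantile normalization. Without scaling, 91 were longer in mesothelium. The epithelium count was 81 without epithelium replicate 2, was 115 without the other epithelium library and reached 471 without mesothelium replicate 1. With the replicate block the counts were 204 and 346 and no call among the 10 genes changed. Whether same-numbered libraries share more than the number is not stated in the labels. The correlation of their deviations was 0.0289 over the tested domains. With peaks of at least 1 kb, 4 genes had a domain peak and 2 a gene-end peak in all 4 libraries; for a −log10 q minimum of 2 these were 2 and 1, and for 4, 0 and 0. The count with gene-end peaks in both replicates 2 alone, whose alternatives were chosen after seeing the data, was 1 and 0 at these 2 thresholds. Depth is unknown and limits what an absent peak means.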
